A study of Mus musculus with 6 samples.

Results

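The mature strands of the miR-7 family and of miR-671, the miRNAs known to pair with the circular RNA Cdr1as, were followed on arrays of mouse small intestine. The members were chosen by name, as the rows of the deposited comparison table that carry a miR-7 or miR-671 mature name. Of the 7 strands named, 6 were among the 1831 miRNAs of the table: mmu-miR-7a-5p, mmu-miR-7b-5p, mmu-miR-7a-1-3p, mmu-miR-7a-2-3p, mmu-miR-7b-3p, and mmu-miR-671-5p, written below without the species prefix. The strand mmu-miR-671-3p was not analysed here. The series compared 3 littermates, labelled wildtype, with 3 Cdr1as-/- mice, labelled cdr1as knockout, to find miRNAs whose level differed when the circular RNA was missing. Per the study's methods, the Cdr1as locus had been removed from the germline with CRISPR/Cas9 on the C57BL/6J background, so that every cell type of the gut lacked it. Ages and sexes of these 6 mice were not given in the sources used here, the mice received no labelled treatment, and the RNA of each mouse was on an array of its own. The labels name the tissue as small intestine and the study's text as its mucosa. Cdr1as itself has no probe in the tables used, so the deletion could not be checked on these arrays.

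Cdr1as is a circular RNA made from the strand opposite to the gene Cdr1. It carries many sites that match the seed of miR-7, the stretch near the 5′ end of a miRNA through which targets are recognised, and it is best known from neurons, where it binds miR-7. miR-671 has a nearly fully complementary site on the circle and can direct its cutting. miR-7 itself is known for high levels in neurons and in hormone-secreting cells, including those of the pancreas.

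The mature sequences are shown because the seed, positions 2 to 8 from the 5′ end, ties these strands to Cdr1as and to each other. Sequences and coordinates are those of RefSeq on GRCm38.p6, all 6 strands matched by name, and the seed is in capitals.
miR-7a-5p: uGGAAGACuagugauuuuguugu
miR-7b-5p: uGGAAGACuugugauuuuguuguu
miR-7a-1-3p: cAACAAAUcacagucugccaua
miR-7a-2-3p: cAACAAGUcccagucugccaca
miR-7b-3p: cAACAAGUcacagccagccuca
miR-671-5p: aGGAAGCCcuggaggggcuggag

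Counting positions from 1 at the 5′ end, miR-7b-5p differs from miR-7a-5p by A10U and by 1 further base at its 3′ end, so both share the seed GGAAGAC. The seed of miR-671-5p, GGAAGCC, differs from it by the single change A7C. The 3p strands miR-7a-2-3p and miR-7b-3p share the seed AACAAGU, and miR-7a-1-3p carries AACAAAU, which is G7A relative to miR-7b-3p. No other miRNA of the table has any of these seeds. The probes of miR-7a-5p and miR-7b-5p therefore face targets that differ by 1 base and a single added base, and cross-hybridisation between the 2 strands cannot be told apart from their own signal.

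miR-7a-5p is made from 2 genes, Mir7-2 on the plus strand at chr7:78888295-78888317 and Mir7-1 on the minus strand at chr13:58392841-58392863, so its level sums over both. The 3p strands separate them, since miR-7a-1-3p comes from chr13:58392800-58392821 and miR-7a-2-3p from chr7:78888335-78888356. miR-7b-5p, at chr17:56243017-56243040, and miR-7b-3p, at chr17:56243055-56243076, come from the plus strand of Mir7b. miR-671-5p lies on the plus strand at chr5:24592132-24592154, in Mir671. Mir7-1 lies within the span of Hnrnpk, which encodes an RNA-binding protein, on the same strand. Mir671 lies within the span of Chpf2, an enzyme of chondroitin synthesis, on the same strand. No gene of the table spans the hairpins of Mir7-2 or Mir7b. Whether the hairpins are intronic was not analysed here, since the table gives whole gene spans.

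The sequence of the circle was not analysed here, but the 300-base RefSeq window around the start of Cdr1, chrX:61185509-61185808, was searched for the complement of the miR-7 seed, GTCTTCC. Cdr1 lies on the minus strand, and the strand of Cdr1as is the plus strand. The window held 5 matches on the plus strand and 0 on the minus strand. Of 32817 windows of the same kind, 1744, or 5.31%, held at least 1 match on either strand, and this window was the only 1 that held as many. The complement of the miR-671-5p seed, GGCTTCC, had 0 matches there, against 8.96% of windows with at least 1. These matches are shown as examples, with the plus strand printed and the match in capitals.
chrX:61185638-61185661: gtgaatatccacGTCTTCCtgaaa
chrX:61185692-61185715: ccaaaaatccatGTCTTCCtgaaa
Such a match describes letters only, not binding.

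Each level below is a normalized log2 intensity from the deposited table, so that 1 unit is a doubling of intensity. Each is the average of 5 probes, or 4 for miR-7a-2-3p, on the unlogged scale, so that the brightest probes weigh most. The probes of miR-7b-5p differ widely, from 4.37 to 8.88 in littermate 1. Littermate 3 stood apart over the whole table, as was known from earlier results of these data. The rank correlation of all 1831 miRNAs was 0.973 between littermates 1 and 2, but 0.706 and 0.714 between littermate 3 and these mice, and it was 0.914 between littermate 3 and Cdr1as-/- mouse 1. The SD over all miRNAs of the difference from the mean of littermates 1 and 2 was 1.71 for littermate 3, 0.79 for Cdr1as-/- mouse 1, 0.46 for mouse 2, and 0.53 for mouse 3. The differences between groups are therefore given with and without littermate 3. Per the file headers, 1 slide held the arrays of all 3 littermates and of Cdr1as-/- mouse 1, and a separate slide those of Cdr1as-/- mice 2 and 3. In whole tissue, fewer cells of a type and less RNA per cell cannot be told apart.

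miR-7a-5p and miR-7b-5p, the strands that pair with Cdr1as, were lower in Cdr1as-/- mice 1 and 3 than in littermates 1 and 2, but not in Cdr1as-/- mouse 2, and were lowest in littermate 3. The level of miR-7a-5p was 9.51, 9.48, and 5.56 in littermates 1 to 3, against 7.85, 9.57, and 8.76 in Cdr1as-/- mice 1 to 3. Cdr1as-/- mouse 2 was the highest of all 6 mice and littermate 3 the lowest, and the groups overlapped. The mean was 8.18 ± 2.27 (SD, n = 3) for littermates against 8.73 ± 0.86 (SD, n = 3) for Cdr1as-/- mice. This difference of 0.54 on the log2 scale had a standard error of 1.14 and a 95% interval from -2.23 to 3.32 (limma, adjusted p = 1.0), and an exact permutation test gave a two-sided p of 0.8, the smallest possible for 3 mice against 3 being 0.1.

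Without littermate 3, the direction of miR-7a-5p turned. The difference was -0.77 on the log2 scale, 0.588-fold, with a standard error of 0.43 and an interval from -1.74 to 0.21 (limma, unadjusted p = 0.11, adjusted p = 0.397). The groups still overlapped through Cdr1as-/- mouse 2, and the exact permutation test gave a two-sided p of 0.6, where 3 mice against 2 cannot go below 0.2. Over the whole table, 8.41% of miRNAs had a difference as low or lower. Neither set of arrays therefore gave a difference of miR-7a-5p larger than the spread between mice.

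The level of miR-7b-5p was 7.0, 6.97, and 3.90 in littermates against 5.31, 6.98, and 6.08 in Cdr1as-/- mice. The order of the mice was close to that of miR-7a-5p, with littermate 3 lowest, Cdr1as-/- mouse 1 next, and Cdr1as-/- mouse 2 between littermates 1 and 2. The difference was 0.16 (standard error 0.94, limma, adjusted p = 1.0) with all 6 arrays and -0.87 (standard error 0.42, limma, unadjusted p = 0.0719, adjusted p = 0.388) without littermate 3, which is 0.549-fold. Exact permutation gave a two-sided p of 0.9 and 0.4. The level of miR-7a-5p minus that of miR-7b-5p on the same array was 1.66 log2 units in littermate 3 and lay between 2.50 and 2.68 on the other 5 arrays, a range of 0.18. In littermate 3 the lowest value of any probe was 2.32. The part of this floor in the low miR-7b-5p level of littermate 3 was not tested.

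**Figure D1:**
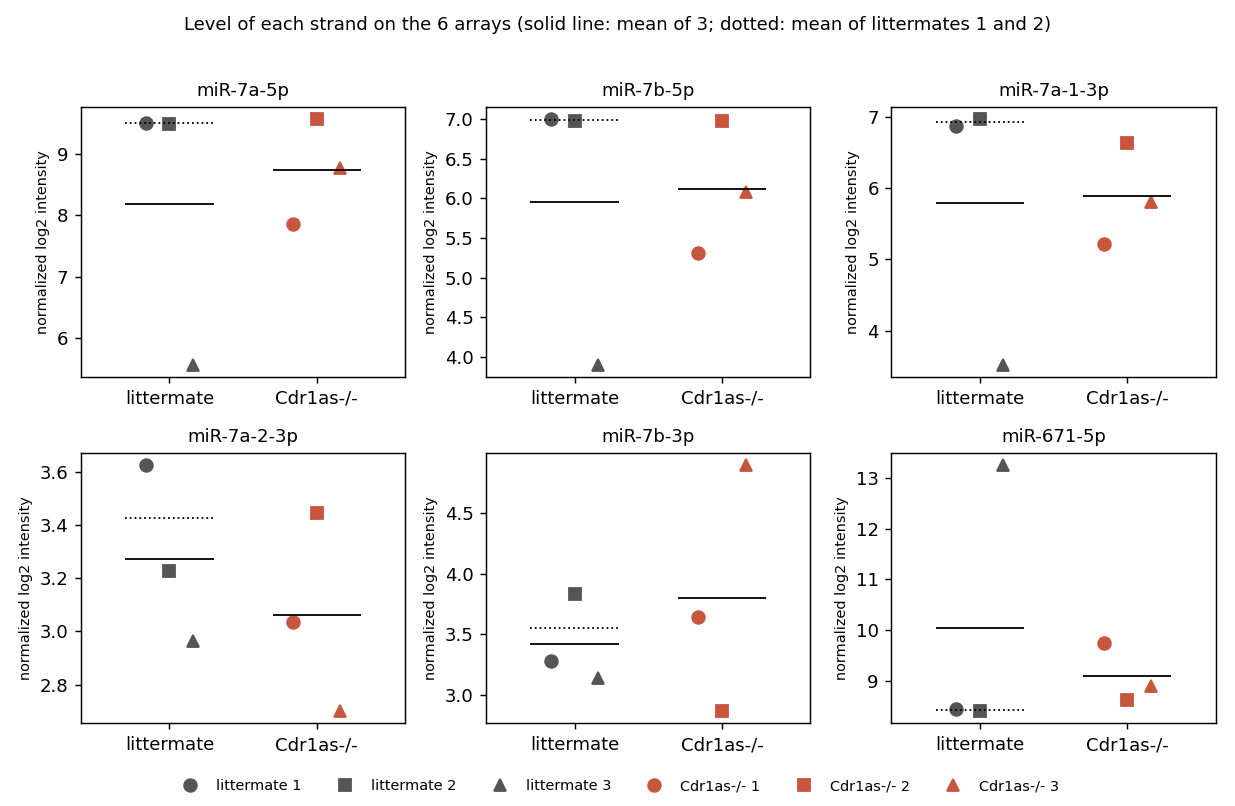
Normalized log2 intensity (y axis, a scale of its own in each panel) of the 6 strands in 3 littermates (grey) and 3 Cdr1as-/- mice (red), 1 point per mouse with the marker giving the mouse number. Solid lines are means of 3 mice and the dotted line is the mean of littermates 1 and 2. Littermate 3 is the lowest mouse for miR-7a-5p, miR-7b-5p, and miR-7a-1-3p and the highest for miR-671-5p.

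Among the strands from the other arm of the miR-7 hairpins, miR-7a-1-3p followed the 5p strands, whereas miR-7a-2-3p and miR-7b-3p lay near the background. In littermate 3, however, miR-7a-1-3p at 3.52 was not far above miR-7b-3p at 3.14. The part of the floor of that array in its low level was not tested. The level of miR-7a-1-3p, which reports on Mir7-1 alone, was 6.87, 6.97, and 3.52 in littermates against 5.22, 6.63, and 5.80 in Cdr1as-/- mice. All 3 Cdr1as-/- mice lay below littermates 1 and 2 and above littermate 3. With all 6 arrays the difference was 0.10 (standard error 0.99, limma, adjusted p = 1.0; exact permutation test, two-sided p = 1.0).

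Without littermate 3, miR-7a-1-3p had the largest difference of the 6 strands, -1.04 on the log2 scale or 0.487-fold, with a standard error of 0.38 and an interval from -1.89 to -0.18. Its unadjusted limma p was 0.0231, but the p adjusted over 1831 miRNAs was 0.305, so the difference failed the correction. The methods' t-test gave an unadjusted p of 0.146. The groups did not overlap, and the exact permutation p of 0.2 is the smallest that 3 mice against 2 allow. It was the only strand of the 6 with an unadjusted limma p below 0.05, against 10.5% of all miRNAs lower and 2.73% higher. It was also the only 1 whose Cdr1as-/- values all lay below littermates 1 and 2, against 19.9% of all miRNAs. A difference as low or lower was seen for 2.4% of the table.

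The level of miR-7a-2-3p was 3.63, 3.23, and 2.96 in littermates against 3.03, 3.45, and 2.70 in Cdr1as-/- mice. Its groups overlapped, with differences of -0.21 (standard error 0.31) with all 6 arrays and -0.37 (standard error 0.29) without littermate 3, at limma adjusted p-values of 1.0 and 0.48. This strand was close to the limit of detection. None of its 4 probes was well above background in Cdr1as-/- mice 2 and 3, and all 4 were at the lowest normalized value of the array in mouse 3. In littermates 1 and 2, 3 of the 4 probes were well above background, and all 4 were in littermate 3 and Cdr1as-/- mouse 1.

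The level of miR-7b-3p was 3.28, 3.83, and 3.14 in littermates against 3.64, 2.86, and 4.90 in Cdr1as-/- mice, with mouse 3 highest and mouse 2 lowest of all. The difference was 0.39 (standard error 0.54) with all 6 arrays and 0.25 (standard error 0.51) without littermate 3, at limma adjusted p-values of 1.0 and 0.789. Of its 5 probes, 1 was well above background in littermate 1 and 0 in Cdr1as-/- mouse 2, while all 5 were on the other 4 arrays. The partner strand miR-7b-5p did not share this order, and its own value was highest in littermate 1.

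miR-671-5p, the miRNA that can direct cutting of Cdr1as, ordered the mice in nearly the opposite way. The array level was 8.46, 8.41, and 13.25 in littermates 1 to 3, against 9.74, 8.63, and 8.90 in Cdr1as-/- mice 1 to 3. All 3 Cdr1as-/- mice lay above littermates 1 and 2, and littermate 3 lay far above all of them. The mean of 10.04 ± 2.78 (SD, n = 3) for littermates against 9.09 ± 0.58 (SD, n = 3) for Cdr1as-/- mice gave a difference of -0.95 (standard error 1.33, interval -4.19 to 2.29, limma, adjusted p = 1.0; exact permutation test, two-sided p = 1.0).

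Without littermate 3 the difference of miR-671-5p was 0.66 on the log2 scale, 1.58-fold, with a standard error of 0.34 and an interval from -0.10 to 1.42 (limma, unadjusted p = 0.0812, adjusted p = 0.388). The groups did not overlap (exact permutation p = 0.2, the smallest possible), as was so for 20.3% of all miRNAs in this direction. Of all miRNAs, 94.3% had a difference as low or lower. The distance from littermates 1 and 2 was uneven, at 1.31 log2 units above their mean in Cdr1as-/- mouse 1 but 0.20 in mouse 2 and 0.47 in mouse 3.

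With all 6 arrays, 2 of the 6 strands had a difference below 0, against 60.9% of all miRNAs, and without littermate 3, 4 of the 6 did, against 42.9%. With all 6 arrays, none of the strands passed an unadjusted p below 0.05, against 0.218% of all miRNAs lower and 0.109% higher, and none had groups that did not overlap, against 2.73% lower and 0.437% higher. After Benjamini-Hochberg adjustment, limma called 0 of 1831 miRNAs (0.0%) with all 6 arrays and 0 (0.0%) without littermate 3, where the lowest adjusted p was 0.158. At an unadjusted p below 0.05 these fits gave 4 lower and 2 higher with all 6 arrays, and 192 lower and 50 higher without littermate 3. The methods' t-test with every array gave 19 and 2, with 0 after adjustment.

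**Figure D2:**
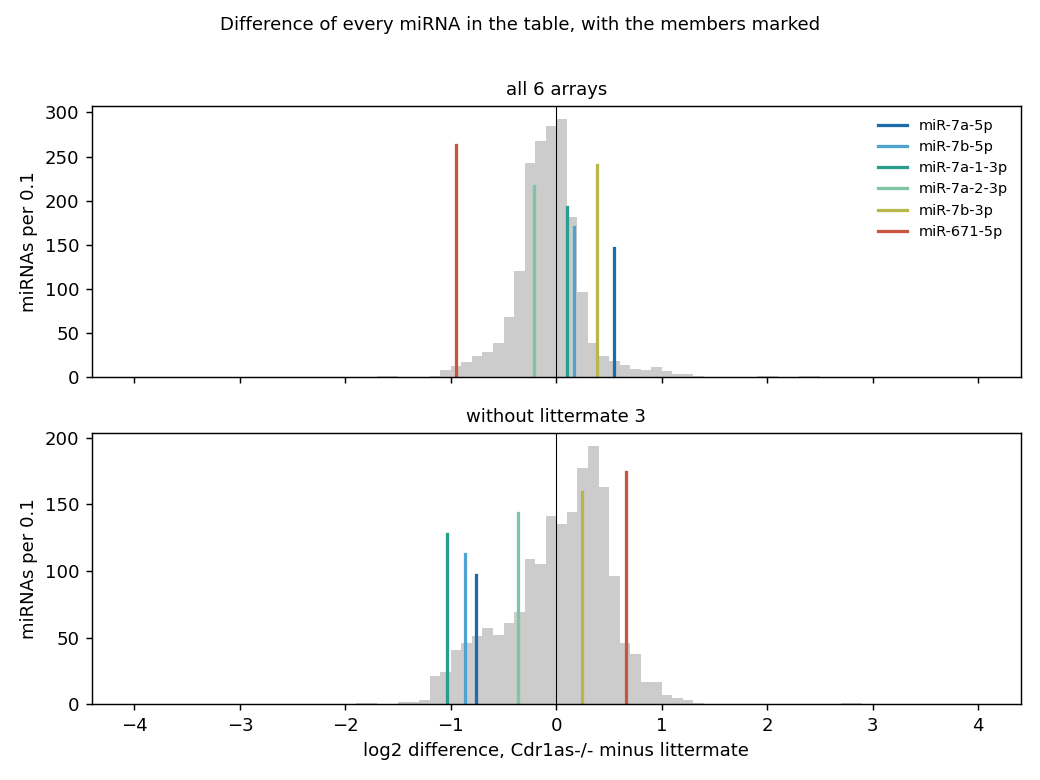
Distribution of the log2 difference, Cdr1as-/- minus littermate (x axis), over all 1831 miRNAs (grey bars, number of miRNAs per 0.1 log2 units on the y axis) with all 6 arrays (top) and without littermate 3 (bottom). Coloured lines mark the 6 strands and their heights carry no value. The lines of miR-7a-5p, miR-7b-5p, and miR-7a-1-3p move from above 0 in the upper panel to between -1.04 and -0.77 in the lower one, and that of miR-671-5p from -0.95 to 0.66.

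The 4 strands that differed most between littermate 3 and the other littermates were also those that moved most in Cdr1as-/- mouse 1, in the same directions. Relative to the mean of littermates 1 and 2, littermate 3 was at -3.93 log2 units for miR-7a-5p, -3.09 for miR-7b-5p, -3.40 for miR-7a-1-3p, and 4.82 for miR-671-5p. In Cdr1as-/- mouse 1 these values were -1.64, -1.68, -1.70, and 1.31. Cdr1as-/- mouse 3 stood at -0.73, -0.91, -1.12, and 0.47, and mouse 2 at 0.08, -0.01, -0.29, and 0.20. For miR-7a-5p, 2.13% of all miRNAs were as low or lower in littermate 3, and for miR-671-5p, 98.6% were as low or lower. In each of these 4 strands, littermate 3 lay further from the mean of littermates 1 and 2 than any of the 3 Cdr1as-/- mice. The cause of its position was not tested.

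**Figure D3:**
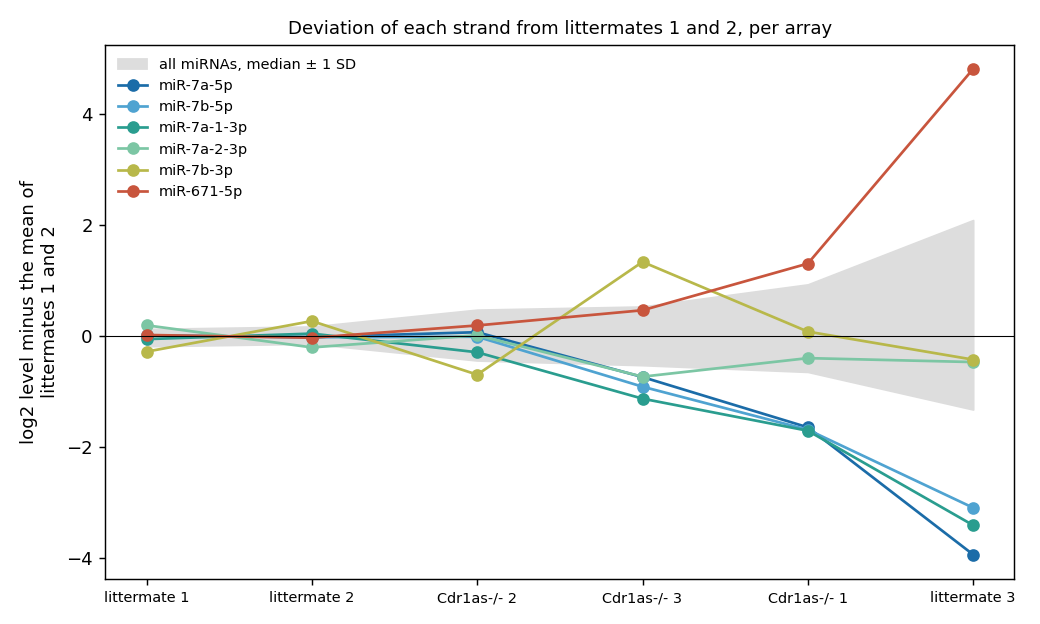
Log2 level minus the mean of littermates 1 and 2 (y axis) for the 6 strands on each array (x axis, placed in an order chosen for display, with lines joining points of a strand). The grey band is the median of all 1831 miRNAs plus and minus 1 SD. The traces of miR-7a-5p, miR-7b-5p, and miR-7a-1-3p fall to between -3.93 and -3.09 in littermate 3, and that of miR-671-5p rises to 4.82.

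The scanner output showed what lay behind the normalized values. Before any scaling between arrays, the median processed signal of the 5 miR-7a-5p probes was 339, 337, and 530 in littermates against 421, 439, and 253 in Cdr1as-/- mice. Littermate 3, the lowest mouse after normalization, had the highest signal before it, and Cdr1as-/- mice 1 and 2 lay above littermates 1 and 2. The highest array was 2.09-fold above the lowest before scaling, against 16.1-fold in the normalized values.

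For miR-671-5p the median signal was 142, 159, and 20500 in littermates against 1500, 218, and 282 in Cdr1as-/- mice, a 144-fold range. All 3 Cdr1as-/- mice were above littermates 1 and 2 before scaling as well as after it. The median signal over all miRNA probes was 8.75, 11.2, and 236 in littermates against 29.2, 14.1, and 11.2 in Cdr1as-/- mice, so littermate 3 and Cdr1as-/- mouse 1 were the brightest arrays both for miR-671-5p and over all miRNAs. This order did not hold for Cdr1as-/- mouse 3, which was above mouse 2 for miR-671-5p and below it over all miRNAs. The part of array brightness in the differences of these strands was not tested.

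The other strands were brightest in littermate 3 before scaling too. The median signal of miR-7a-1-3p was 31.5, 40, and 89.4 in littermates against 44.1, 48.1, and 24.8 in Cdr1as-/- mice, so that Cdr1as-/- mice 1 and 2 were above littermates 1 and 2 before scaling and below them after it. That of miR-7b-5p was 14.4, 16, and 99.5 against 19.4, 19.8, and 12, with the same order of groups. The brightest probe of miR-7b-5p, which weighs most in its level, was at 191, 231, and 307 against 239, 261, and 152. Before scaling, only Cdr1as-/- mouse 3 was below littermates 1 and 2 in miR-7a-5p, miR-7b-5p, and miR-7a-1-3p. In these 3 strands, Cdr1as-/- mouse 1 was thus below littermates 1 and 2 only after normalization, and mouse 3 before and after it.

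**Figure D4:**
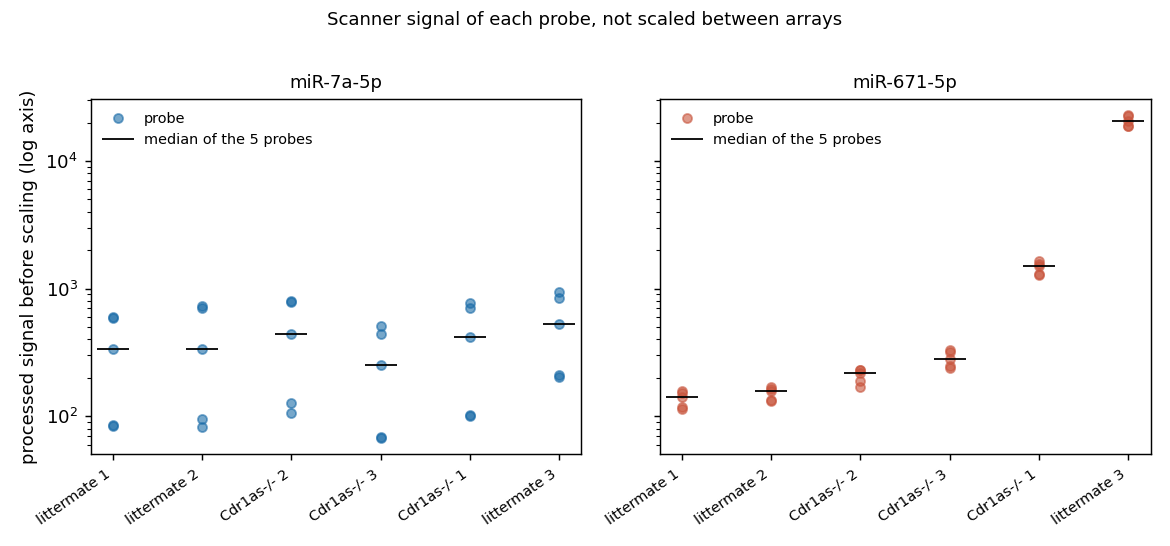
Processed signal before scaling (y axis, log scale) of each of the 5 probes (points) of miR-7a-5p (left) and miR-671-5p (right) on the 6 arrays (x axis, placed as in the plot of deviations), with black bars at the median of the probes. The bars of miR-7a-5p lie between 253 and 530, and those of miR-671-5p between 142 and 20500.

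The probes of 5 strands shared a direction without littermate 3, and those of miR-7b-3p did not. Of these 5 strands, miR-7a-2-3p had no probe well above background in Cdr1as-/- mice 2 and 3. On the deposited values its probes differed by only -0.52 to -0.17 log2 units without littermate 3. After each array was scaled by its 75th percentile over probes well above background, and without littermate 3, all 5 probes of miR-7a-5p were lower, by differences from -0.95 to -0.82 log2 units. All 5 of miR-7b-5p lay between -0.92 and -0.62, and all 5 of miR-7a-1-3p between -1.08 and -0.86. All 4 of miR-7a-2-3p lay between -1.34 and -0.64. All 5 probes of miR-671-5p were higher, between 0.65 and 0.72, whereas those of miR-7b-3p ran from -0.46 to 0.53, with 3 of 5 lower. With all 6 arrays, the probes of miR-7a-5p lay between 0.21 and 0.42, those of miR-671-5p between -0.28 and -0.15, and those of miR-7a-2-3p between -0.86 and -0.13. Probes of the other strands then fell on both sides of 0, from -0.31 to 0.38 for miR-7b-5p, from -0.01 to 0.18 for miR-7a-1-3p, and from -0.01 to 0.72 for miR-7b-3p. Probes of 1 strand share the RNA of a mouse, so they are not replicates of it. The probes of miR-7a-5p, miR-7a-1-3p, and miR-671-5p were well above background on all 6 arrays, as were those of miR-7b-5p except for 2 of 5 in Cdr1as-/- mouse 2. No probe of the 6 strands was flagged as an outlier.

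The opposite courses of the miR-7 strands and miR-671-5p matched a split that ran through much of the table. Across the 6 arrays, miR-7a-5p had a Pearson correlation of 0.9894 with miR-7b-5p, 0.9869 with miR-7a-1-3p, and -0.9824 with miR-671-5p, given as a description over 6 arrays that share littermate 3 as an extreme. Over the 5 arrays without it the values were 0.9957, 0.9642, and -0.9726. Of the 1830 other miRNAs, 12.8% had a correlation above 0.9 with miR-7a-5p and 23.0% one below -0.9. Over 5 arrays these shares were 9.84% and 14.6%.

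The miRNAs most like miR-7a-5p across 6 arrays were miR-1839-3p (r = 0.9992), miR-191-5p (0.9987), and miR-98-5p (0.9986), and without littermate 3 they were miR-6516-3p (0.9999), miR-27b-3p (0.9991), and miR-7b-5p (0.9957). miR-191-5p, for example, had levels of 9.02, 9.13, and 5.47 in littermates against 7.48, 9.04, and 8.27 in Cdr1as-/- mice and, like miR-7a-5p, was lowest in littermate 3 and next lowest in Cdr1as-/- mouse 1. Those most like miR-671-5p were miR-7047-5p (0.9995), miR-3072-5p (0.9993), and miR-146b-3p (0.9986), and without littermate 3 miR-1897-5p (0.9990), miR-3072-5p (0.9988), and miR-7033-5p (0.9978). Here 20.3% of the other miRNAs had a correlation above 0.9 and 9.67% one below -0.9.

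The strands also differed in base composition, and the deviation of littermate 3 moved with it over the whole table. G and C make up 34.8% of miR-7a-5p, 33.3% of miR-7b-5p, 40.9% of miR-7a-1-3p, 54.5% of miR-7a-2-3p and of miR-7b-3p, and 69.6% of miR-671-5p. Over the table, the median deviation of littermate 3 was 0.03 for the 287 miRNAs with less than 40% G and C, the class of miR-7a-5p and miR-7b-5p. It was 0.11 for the 453 with 40% to 50%, the class of miR-7a-1-3p, and 0.83 for the 361 with 60% to 70%, the class of miR-671-5p. In these 3 classes, 9.41%, 9.49%, and 0.554% of miRNAs deviated by over 3 log2 units downwards, as those miR-7 strands did, and 1.39%, 1.55%, and 9.7% by over 3 upwards, as miR-671-5p did. The median difference between groups was -0.06, -0.05, and 0.26 without littermate 3 and -0.03, -0.02, and -0.13 with all 6 arrays. The class of 50% to 60%, that of miR-7a-2-3p and miR-7b-3p, holds 639 miRNAs. Its median deviation in littermate 3 was 0.56, whereas miR-7a-2-3p lay at -0.46 and miR-7b-3p at -0.42. In that class 3.13% deviated by over 3 log2 units downwards and 5.63% upwards. The part of base composition in the differences of these strands was not tested.

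**Figure D5:**
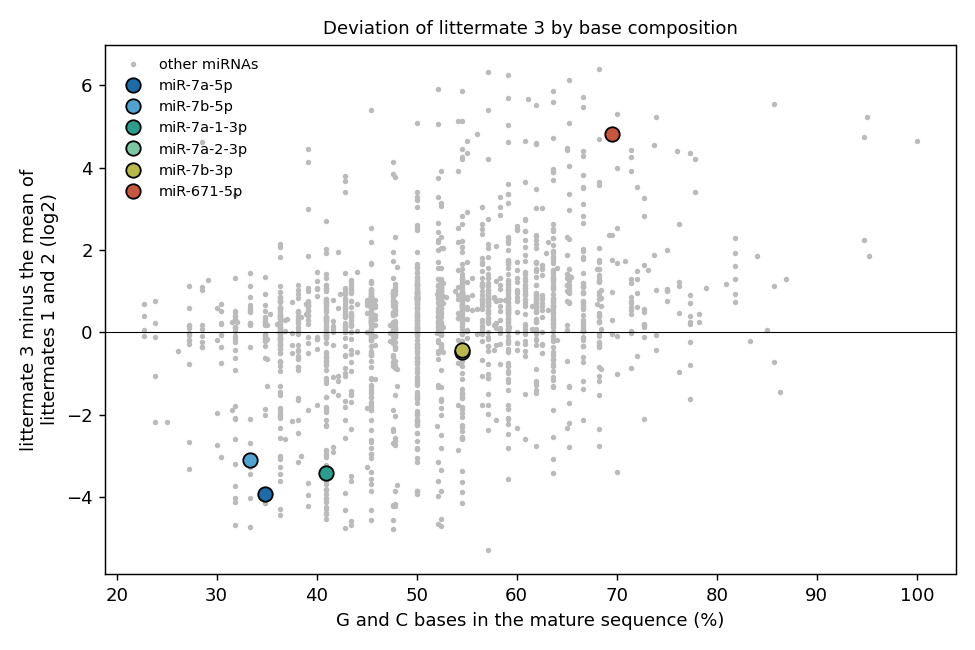
Level in littermate 3 minus the mean of littermates 1 and 2 (y axis, log2 units) against the share of G and C in the mature sequence (x axis, percent) for 1831 miRNAs (grey), with the 6 strands coloured. miR-7a-2-3p lies behind miR-7b-3p at 54.5%. miR-7a-5p, at 34.8%, lies at -3.93 and miR-671-5p, at 69.6%, at 4.82.

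Markers of the tissue and of other cells were read beside these strands. All 8 epithelial miRNAs were well above background on all 6 arrays, and so were the 6 of smooth muscle and mesenchyme, the 5 of immune cells, and the 2 of red cells. Of 14 endocrine and neuronal miRNAs, the cell types for which miR-7 is known, 8 were. Without littermate 3, 3 of these 14 were lower and 1 higher at an unadjusted limma p below 0.05, where 10.5% of all miRNAs were lower and 2.73% higher. Their median difference was -0.09, against 0.10 over all miRNAs, and with all 6 arrays it was -0.08, against -0.07. Those lower, named after their values were seen, were miR-212-3p (-1.31, standard error 0.33), miR-375-5p (-0.89, standard error 0.26), and miR-153-3p (-0.73, standard error 0.24), and the higher was miR-129-5p (0.54, standard error 0.23), at limma adjusted p-values between 0.247 and 0.366. Of these, miR-375-5p and miR-129-5p were not well above background on every array. With all 6 arrays none of the 14 passed, and the differences of these 4 were -0.56 (standard error 0.69), -0.38 (0.48), -0.11 (0.55), and 0.23 (0.33), in the same order.

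The most abundant of the endocrine and neuronal list, miR-375-3p, which is known from hormone-secreting cells, was at 8.27, 8.47, and 5.01 in littermates against 6.87, 8.18, and 7.88 in Cdr1as-/- mice. It was lowest in littermate 3 and next lowest in Cdr1as-/- mouse 1, as were the miR-7 5p strands. Its difference was 0.39 (standard error 0.98) with all 6 arrays and -0.73 (standard error 0.37, limma, unadjusted p = 0.0823, adjusted p = 0.388) without littermate 3, so that its direction turned as well. The summed level of that list ranged from 8.51 to 9.69 log2 units in littermates and from 8.79 to 9.61 in Cdr1as-/- mice. The list did not share the course of miR-375-3p as a whole. In littermate 3 its members lay on both sides of the mean of littermates 1 and 2, with a median deviation of -0.17.

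Littermate 3 was low for other cell types as well. Relative to littermates 1 and 2, its median deviation came to -2.96 for epithelial miRNAs, -2.97 for smooth muscle and mesenchyme, -3.40 for immune cells, and -2.78 for red cells, against -0.17 for the endocrine and neuronal list and 0.39 over all miRNAs. The medians are not alike in kind, since only 8 of the 14 endocrine and neuronal miRNAs were well above background on all 6 arrays, against every miRNA of the other lists. The summed epithelial level ranged from 16.04 to 17.17 in littermates and from 17.05 to 17.16 in Cdr1as-/- mice, and the summed level of smooth muscle and mesenchyme from 7.47 to 11.33 and from 10.13 to 12.55. That of immune cells ranged from 9.11 to 12.41 in littermates and from 11.89 to 12.65 in Cdr1as-/- mice, and that of red cells from 5.78 to 10.06 and from 7.42 to 8.11. Without littermate 3, 1 of the 2 red cell miRNAs, miR-451a, was lower at an unadjusted p below 0.05 (-1.50, standard error 0.50, limma, adjusted p = 0.27), and no epithelial, smooth muscle, or immune miRNA of the lists passed. With all 6 arrays the difference of miR-451a was -0.30 (standard error 1.1), and no miRNA of these lists passed. The part of cell makeup in the levels of the miR-7 strands was not tested.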

How the data were processed

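Small RNA of 3 littermates and 3 Cdr1as-/- mice was measured on one-colour arrays, 1 array per mouse, grouped by the genotype in the labels. The platform is miRCURY LNA in the study's methods but the files have Agilent's format, so the probe chemistry is not settled here. The labels do not say whether replicates came from separate litters, and p-values measure only the spread between these 6 samples. The authors deposited scanner intensity values from Feature Extraction (version 11.0.1.1, per the submitters' processing notes), background-subtracted and not scaled between arrays. They also deposited a table of normalized log2 intensities for 10690 probes and a table for 1831 miRNAs, which was used here. Its normalization is not given in the sources used here, and averaging 1 to 5 probes on the unlogged scale and taking the log2 gave back each of its values within 8.7e-09. Further columns of the authors' table hold fold changes, p-values, q-values, and their -log10 for the authors' own comparison and were not used.

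A linear model was fitted to all 1831 miRNAs with lmFit and eBayes of limma 3.58.1 (R 4.3.3), with Benjamini-Hochberg adjustment and without a filter. The fit was repeated without littermate 3, which was known from earlier results of these data to stand apart. Single strands were also compared by an exact two-sided permutation test in SciPy 1.17.1. The code was tested on simulated data with less noise than these arrays and no outlying array, which checks the code only. Alternatives were the 75th percentile of each array over 5555 probes detected on every array or over all 14192 small RNA probes, quantile normalization, normexp with an offset of 50, a filter on dim probes, an intensity trend, the methods' t-test, blocks for replicate number and slide, and each mouse left out. Those on unscaled signal, and those that join another choice with leaving out littermate 3, were chosen after seeing the data. Summaries used Python 3.11.15, NumPy 2.4.6, and pandas 2.3.3, and plots matplotlib 3.10.9.

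The strands named were the members, any miRNA sharing a seed with them, the 3 miRNAs most correlated with miR-7a-5p and with miR-671-5p, and the most abundant miRNA of a marker list. Marker miRNAs with an unadjusted limma p below 0.05 without littermate 3 were also named, after their values were seen. Members and lists were chosen with earlier results of these data known. The number of arrays limits precision.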

Additional observations from a re-analysis of the deposited data

How the results depend on the processing

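Adjusted limma calls stayed at 0 under every alternative. Alternatives on scanner output used 1 probe per miRNA, in general the one with the highest mean, whereas a deposited value averages up to 5. They thus change the probes as well as the scaling. Without littermate 3 on scanner output scaled to the 75th percentile over detected probes, the log2 differences were -0.93 for miR-7a-5p, -0.92 for miR-7b-5p, -1.02 for miR-7a-1-3p, -0.46 for miR-7b-3p, and 0.65 for miR-671-5p. The methods' t-test on the deposited values takes the same group means as limma, so its differences are the same by construction. Without littermate 3 its unadjusted p was 0.317 for miR-7a-5p, 0.26 for miR-7b-5p, 0.146 for miR-7a-1-3p, and 0.226 for miR-671-5p. On unscaled signal of all 6 arrays the log2 differences were -0.18 for miR-7a-5p, -0.17 for miR-7b-5p, -0.38 for miR-7a-1-3p, and -0.56 for miR-7b-3p. The median over all miRNAs was then -0.74, against -0.07 on the deposited values. With the slide as a block, which sets Cdr1as-/- mouse 1 against the 3 littermates, the differences were -0.33, -0.65, and -0.57 for miR-7a-5p, miR-7b-5p, and miR-7a-1-3p. miR-7b-3p turned to -0.0091 with the 75th percentile over detected probes, which moved the median over all miRNAs to -0.19, and to -0.15 with quantile normalization. Over the 5 probes of miR-7b-3p, that percentile gave differences from -0.01 to 0.72, with 2 of 5 lower. miR-7a-2-3p turned to 0.0055 with quantile normalization and 0.39 with normexp. Leaving out 1 mouse at a time gave -0.77 to 1.21 for miR-7a-5p, -0.87 to 0.69 for miR-7b-5p, -1.04 to 0.69 for miR-7a-1-3p, -0.41 to -0.03 for miR-7a-2-3p, -0.16 to 0.85 for miR-7b-3p, and -1.76 to 0.66 for miR-671-5p. The cause of these turns was not tested. The other 108 values kept their direction or stayed within 1.5 times the count, but many of them could not move. The t-test, the intensity trend, the filter on dim probes, and the replicate block return the same difference for a strand by construction. This tally also holds the adjusted calls, which were 0 throughout, so it does not measure how stable the differences are.

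At an unadjusted p below 0.05, the numbers of lower and of higher miRNAs, 4 and 2 with all 6 arrays, were 1 and 0 with the 75th percentile over detected probes, 3 and 1 over all probes, 7 and 1 with quantile normalization, 0 and 0 with normexp, 7 and 2 with an intensity trend, 19 and 2 with the methods' t-test, 2 and 2 with the slide block, and 0 and 0 without scaling. Without littermate 3 they were 158 and 39 on scanner output and 130 and 44 with the methods' t-test. Leaving out 1 mouse at a time gave 0 to 192 lower and 0 to 50 higher.

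The labels do not say whether equal replicate numbers pair mice. The deviations of mice with the same number from their group means correlated at -0.759, 0.564, and -0.224. These values cannot decide it, since littermate 3 shifts the group mean from which littermates 1 and 2 deviate. The replicate block cannot change a difference, since each number holds 1 mouse of each group, and moves only its standard error. That error was 0.96 for miR-7a-5p, 0.79 for miR-7b-5p, 0.80 for miR-7a-1-3p, 0.35 for miR-7a-2-3p, 0.60 for miR-7b-3p, and 1.15 for miR-671-5p. At an unadjusted limma p below 0.05 the block gave 1 miRNA lower and 2 higher.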
